A study of Danio rerio with 9 samples.

Results

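MZ*cep290*-/- zebrafish embryos were compared with wild-type embryos across every gene that averaged at least 2 RPKM over the 6 libraries of the comparison. RPKM is the number of reads on a gene per kilobase of its length, scaled to a normalized library size. The rule took 15155 of the 33737 genes in the deposited table and used a gene's mean level only, not its difference between groups. The gene just inside it, *kremen1*, averaged 2.00 RPKM (2.08, 2.17 and 2.17 RPKM in MZ*cep290*-/- libraries, against 3.58, 0.556 and 1.44 RPKM in wild-type libraries), and the gene just outside, *tcf19l*, also rounded to 2.00 RPKM (1.67, 1.35 and 1.64 RPKM in MZ*cep290*-/-, against 1.77, 2.85 and 2.73 RPKM in wild type). A low gene can reach the rule through 1 group alone, so genes near 2 RPKM that differ strongly are partly selected by it.

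The mutant embryos were maternal zygotic: neither the mother nor the embryo carried a normal copy of *cep290*, and the allele was a CRISPR/Cas9 deletion of 10 bp that shifts the reading frame to a premature stop. The embryos they were set against were wild type, and both groups were of the TuAB strain. Each group consisted of 3 RNA samples at 72 hours post-fertilization (hpf), each from a pool of 30 whole embryos, so the 3 values of a group are spread between pools and say nothing about single embryos. The labels call the wild type TuAB and the study's text calls it siblings; the clutches were not given, so an effect of genotype and one of clutch cannot be told apart. The remaining 3 libraries of the series, from *cep290ex25* morphants (embryos injected with a splice-blocking morpholino), entered through the filter on low values and the common estimate of the spread between libraries.

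Cep290 is a large coiled-coil protein of the ciliary transition zone and of the satellites around the centrosome, where it takes part in deciding which membrane proteins enter the cilium. The photoreceptor outer segment is a modified cilium, so the whole supply of opsin and of the light-signalling cascade passes through the zone that Cep290 occupies. Human *CEP290* variants cause retinal degeneration, cystic kidneys and malformations of the brain. At 72 hpf a zebrafish embryo is hatching, and its fast muscle and heart are at work. Its photoreceptors are still maturing, and its retina and brain still hold dividing progenitors.

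The libraries of the groups differed in more than genotype. MZ*cep290*-/- libraries held between 18662115 and 21299112 reads on genes, against between 5652757 and 7674248 in wild type. On a gene of 2 kb, 3 reads were worth 0.0535 to 0.0615 RPKM in MZ*cep290*-/- and 0.265 to 0.309 RPKM in wild type, so low values are coarser in wild type. The 50 most-read genes together held 21.3% to 22.0% of reads in MZ*cep290*-/- and 40.8% to 41.9% in wild type, and the library sizes behind the RPKM values were 1.31 to 1.32 times the reads in MZ*cep290*-/- and 0.737 to 0.859 times in wild type. Replicates correlated across the fitted genes with r between 0.972 and 0.976 in MZ*cep290*-/- and between 0.794 and 0.844 in wild type; genes are not independent replicates. Signal recognition particle RNA, which has no poly(A) tail and should be lost in poly(A) selection, took 0.133%, 0.190% and 0.192% of reads in MZ*cep290*-/-, against 1.30%, 1.03% and 0.639% in wild type. The part of depth and of RNA selection in the results was not tested. In whole-embryo RNA, fewer cells of a type and less RNA per cell cannot be told apart. Defining markers of every expected tissue were read in both groups, although 5 marker symbols have no entry in the table, and 1 neuronal marker, 1 photoreceptor marker and a second entry of a leukocyte marker were at 0 in all 6 libraries. The targeted gene *cep290* had 1.32, 1.14 and 1.29 RPKM in MZ*cep290*-/-, against 2.60, 1.62 and 1.72 RPKM in wild type. Its level was lower in each mutant library, but the log2 fold change of −0.60 (SE 0.31, limma's adjusted p = 0.16) was not called, its mean was under 2 RPKM, and a deletion of this size need not change a read count.

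Of the 15155 genes, 14830 passed the filter on low values (at least 0.5 RPKM in 3 of the 9 libraries) and were tested with limma on log2(RPKM + 0.1), a scale that understates the change of low genes. A gene was called at an adjusted p under 0.05 and a change of more than 2-fold. In MZ*cep290*-/- embryos 2036 genes were called higher (13.7% of those tested) and 1111 lower (7.49%), beside 10.4% higher and 12.1% lower over all 21982 genes of the fit. At an adjusted p under 0.05 with no fold threshold there were 6094 genes, and 7562 had an unadjusted p under 0.05. The groups did not overlap in 2029 of the higher and 1104 of the lower calls; without any test, the groups did not overlap upwards in 33.6% and downwards in 23.3% of the tested genes. Calls above 4-fold numbered 332 higher and 246 lower, and calls above 8-fold 69 higher and 105 lower. Genes called lower were shorter, with a median length of 1486 bases against 2303 bases for genes called higher and 2233.5 bases for all.

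The direction of change followed the level of the gene. Between 4 and 8 RPKM, 745 of 4366 genes were called higher (17.1%) and 181 lower (4.15%), at a median log2 fold change of 0.30. Between 128 and 512 RPKM, 14 of 275 were higher and 101 lower (36.7%), and of the 167 genes at or above 512 RPKM none was higher and 127 were lower (76.0%), at a median log2 fold change of −1.48. Cyclic loess normalization, which removes by construction a trend of change with level, left medians between −0.08 and 0.03 in these bins and 1400 higher and 1244 lower calls in place of 2036 and 1111. The scaling also set the zero point: the median log2 fold change of all tested members was 0.15 with the deposited library sizes, 0.11 with median-of-ratios scaling, 0.11 with quantile normalization, −0.01 with cyclic loess, −0.10 when centred on genes of 5 to 50 RPKM and 0.86 with plain read totals. Of all calls, 64.7% were higher with the deposited sizes, 94.9% with read totals and 41.3% with the centring. Medians of some gene lists are therefore also given relative to the median of all members under these scalings. A list median given alone keeps the zero point of its scaling. Counts of calls in any list are to be read beside 13.7% higher and 7.49% lower over all tested members.

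**Figure D1:**
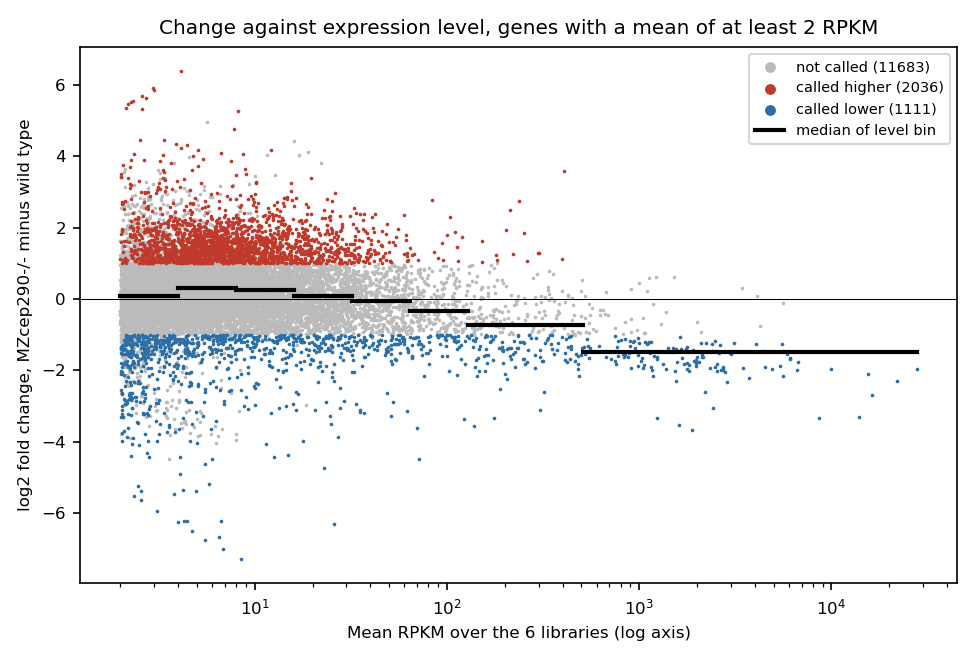
Log2 fold change (MZ*cep290*-/- minus wild type) of the 14830 tested genes against their mean RPKM over the 6 libraries (log axis); 2036 genes called higher are red, 1111 called lower are blue, and black bars are the median of each level bin. The bars lie between −0.07 and 0.30 up to 64 RPKM and descend to −1.48 for genes of at least 512 RPKM.

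**Figure D2:**
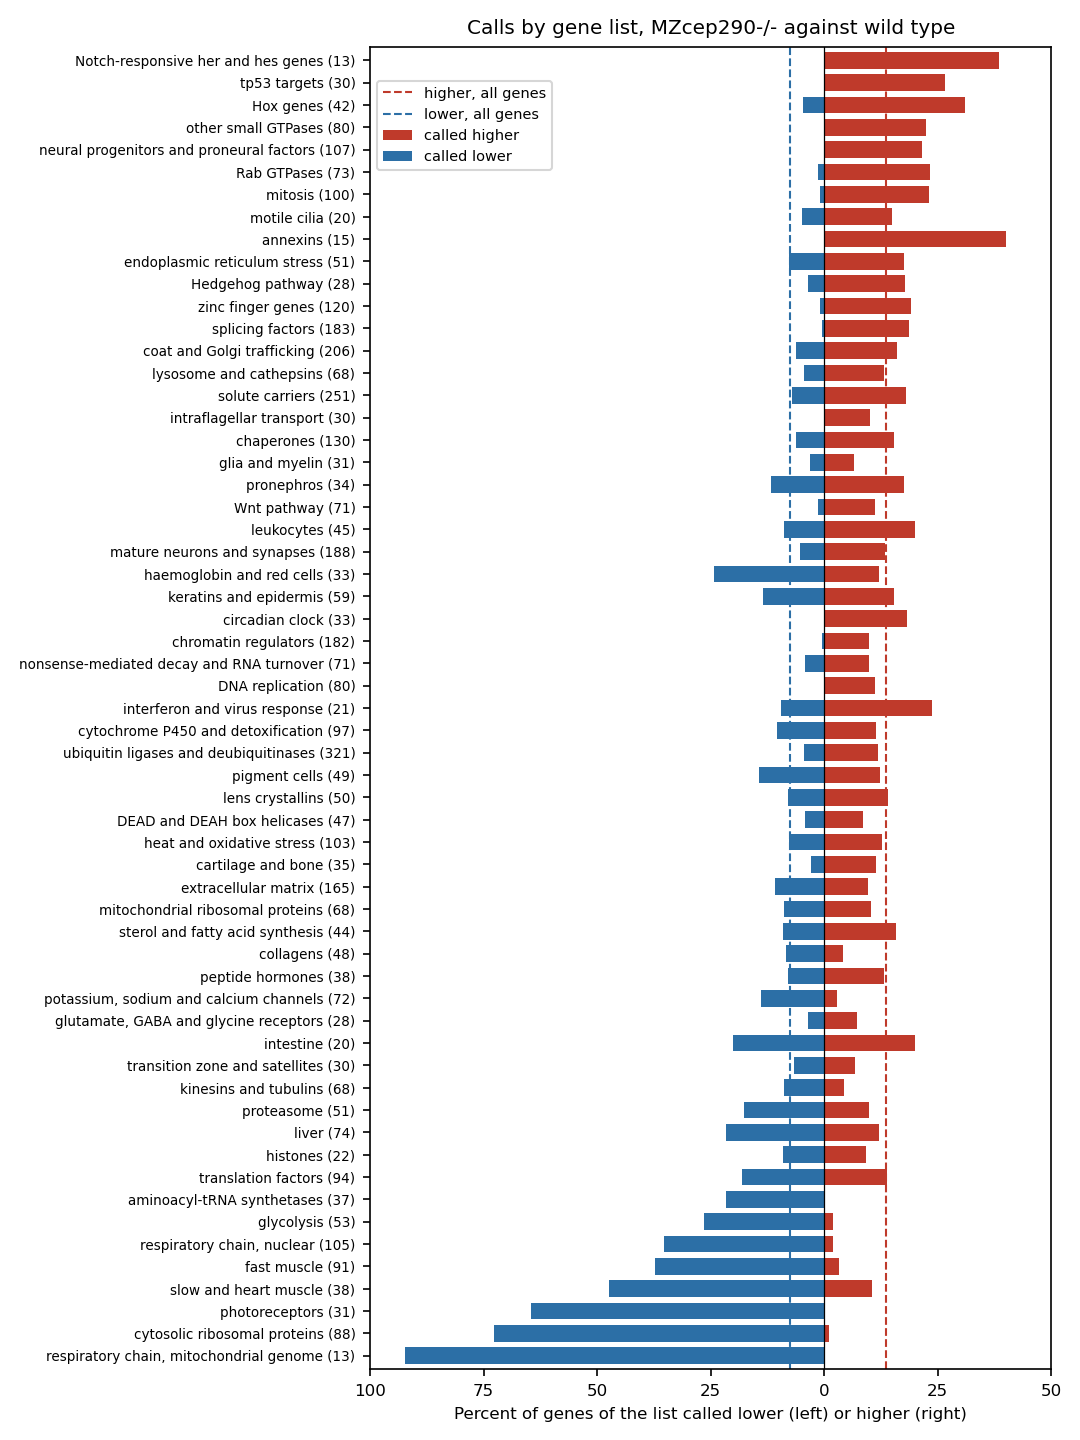
Percent of the tested genes of each list that were called lower (left) or higher (right) in MZ*cep290*-/-, with the number of tested genes in brackets and dashed lines at the percentages for all tested members (13.7% higher, 7.49% lower). The short lists of exocrine pancreas (9 tested genes) and hatching gland (5) are not drawn. Photoreceptor, ribosomal, respiratory chain and muscle lists stand at the bottom with long bars to the left, and her/hes, p53 target and Hox lists at the top with bars to the right.

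Photoreceptor genes formed the tissue list with the largest share of lower calls. Of the 85 genes of the list in the table, 31 reached 2 RPKM, and 20 of them were called lower (64.5%) and none higher. Their median log2 fold change was −1.39, which was −1.54 relative to all members and between −1.71 and −1.54 over 5 other scalings. The count of lower genes ran from 15 to 21 over 21 alternative settings, and 4 genes were called higher with read totals. Some of the list, such as *pde6c*, *pde6h* and *prph2b*, met the rule of 2 RPKM through wild type. The share called lower is therefore partly selected by the rule. Genes of the list make the visual pigments, the cascade that turns light into a change of membrane current, and the stacked discs of the outer segment.

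Cone pigments were low in every mutant library. The ultraviolet opsin *opn1sw1* had 5.64, 5.94 and 6.46 RPKM in MZ*cep290*-/-, against 140, 120 and 153 RPKM in wild type (log2 fold change −4.49, SE 0.335, adjusted p = 3.05e-05). The blue opsin *opn1sw2* had 2.84, 3.26 and 4.23 RPKM in MZ*cep290*-/-, against 56.7, 47.2 and 48.8 RPKM in wild type, and the red opsin *opn1lw2* had 7.79, 5.77 and 6.83 RPKM, against 44.1, 39.0 and 71.0 RPKM. In these 3 opsins the lowest wild-type library was more than 5 times the highest mutant library. Blue and red opsin, and *arr3a*, *gnat1*, *pde6c*, *crx* and *nr2e3* below, were chosen after their values were seen.

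Transduction genes of cones lay as far down as the pigments. The alpha subunit of cone transducin, *gnat2*, had 1.23, 1.36 and 1.22 RPKM in MZ*cep290*-/-, against 25.9, 28.0 and 31.3 RPKM in wild type (log2 fold change −4.38, SE 0.26). Its beta partner *gnb3b* had 1.02, 1.14 and 1.51 RPKM, against 19.1, 24.2 and 22.0 RPKM, and its gamma partner *gngt2b* had 9.43, 10.1 and 11.7 RPKM, against 115, 110 and 165 RPKM. These 3 subunit genes thus fell, with no overlap between groups. Of the similarly named genes, *gnb3a* was called higher (group means of 19.5 RPKM in MZ*cep290*-/- against 9.58 RPKM in wild type, log2 fold change 1.02). *gngt2a* was called lower (9.03 against 19.9 RPKM, −1.09), and both were chosen after their values were seen. The cone phosphodiesterase *pde6c* had 0.467, 0.673 and 0.623 RPKM in MZ*cep290*-/-, against 6.95, 5.83 and 5.73 RPKM in wild type, and its inhibitory subunit *pde6h* had 0.0589, 0 and 0.438 RPKM, against 8.15, 7.79 and 9.04 RPKM. The mutant values of *pde6h* stand for 1, 0 and 7 reads. Cone arrestin *arr3a*, which ends the response to light, had 6.67, 7.43 and 7.66 RPKM in MZ*cep290*-/-, against 59.8, 63.6 and 67.8 RPKM in wild type, and *prph2b*, a structural protein of the disc rim, had 0.488, 0.647 and 0.356 RPKM, against 9.67, 9.02 and 9.74 RPKM. The transducin subunit *gnat1* had 1.93, 1.95 and 2.44 RPKM, against 5.78, 3.98 and 5.33 RPKM (log2 fold change −1.21, SE 0.316, adjusted p = 0.0157), a call that was lost with read totals and without MZ*cep290*-/- replicate 1 (adjusted p = 0.0586) or 2 (adjusted p = 0.057). The genes given do not cover the whole list, and falls in cones and in rods were not compared by a test.

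The transcription factors *crx* and *nr2e3* were not called. *crx*, which switches on photoreceptor genes, had 19.1, 16.8 and 19.0 RPKM in MZ*cep290*-/-, against 9.09, 14.2 and 22.3 RPKM in wild type (log2 fold change 0.36, SE 0.264, adjusted p = 0.325). *nr2e3*, a factor of rod identity in mammals, had 8.07, 7.13 and 7.93 RPKM, against 6.28, 5.77 and 8.14 RPKM (log2 fold change 0.21, SE 0.162, adjusted p = 0.352). For both, wild-type libraries lay on both sides of the mutant ones.

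**Figure D3:**
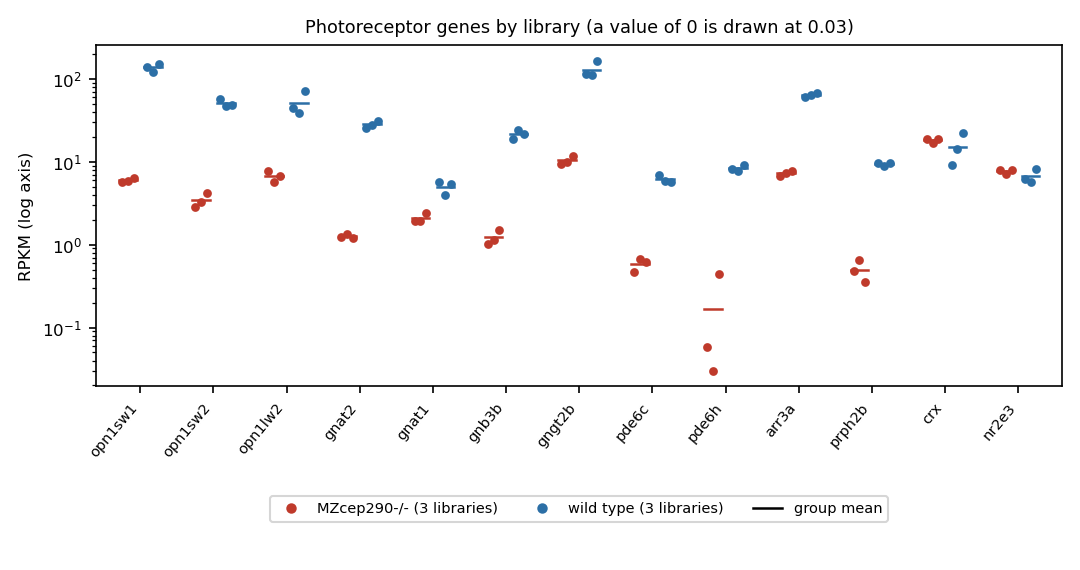
RPKM of 13 photoreceptor genes (log axis) in each MZ*cep290*-/- library (red) and each wild-type library (blue), with lines at group means and a value of 0 drawn at 0.03. For cone opsins, cone transduction genes and *prph2b* the red points lie below the blue, while *crx* and *nr2e3* points overlap.

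The lens list did not move as a whole. Of its 50 tested genes 7 were called higher and 4 lower (8 lower without wild-type replicate 1). The median log2 fold change of 0.02 was negative with 2 of the other scalings and as high as 0.75 with read totals. *mipa* and *mipb*, water channels of lens fibres, rose: *mipa* (chosen after its values were seen) had 39.3, 39.0 and 38.2 RPKM in MZ*cep290*-/-, against 6.16, 6.43 and 7.78 RPKM in wild type, and *mipb* 44.7, 41.5 and 42.4 RPKM, against 7.14, 16.9 and 25.4 RPKM. The beaded filament gene *bfsp2* rose by a log2 fold change of 1.41 and the beta crystallin *cryba2a* by 1.10, or by 0.94 and no longer called without wild-type replicate 1. The gamma crystallin *crygm2d7* was lower, with 169, 175 and 174 RPKM in MZ*cep290*-/-, against 344, 387 and 384 RPKM in wild type, a call that was lost with read totals, quantile and cyclic loess normalization.

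Neural progenitor genes moved the other way from photoreceptor genes. Of 107 tested genes 23 were called higher (21.5%) and none lower, and the median log2 fold change was 0.59, which was between 0.44 and 0.49 above all members under every scaling. The count of higher calls ran from 17 to 69 over the alternative settings, and up to 5 genes were lower. Counted as reads, the list took 1.12% ± 0.019 of all reads in MZ*cep290*-/- and 0.531% ± 0.005 in wild type (SD, n = 3 each, exact permutation p = 0.10, the smallest that 3 against 3 allows). Such shares follow the read totals, with which the median gene of all members was itself higher in MZ*cep290*-/- (log2 fold change 0.86), so a typical list also took a larger share of the mutant reads. Of the 61 lists, only collagens (exact permutation p = 0.20) and chaperones (0.40) gave a p-value above 0.10. That p-value therefore does not set a list apart.

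*sox11a*, a factor of newly born neurons, had 59.4, 55.3 and 55.0 RPKM in MZ*cep290*-/-, against 7.68, 11.1 and 13.8 RPKM in wild type (log2 fold change 2.41, SE 0.181, adjusted p = 3.12e-05). *id3*, an inhibitor of differentiation factors, had 45.8, 54.0 and 47.6 RPKM, against 17.3, 20.1 and 17.3 RPKM. The progenitor factor *sox2* had 30.5, 25.5 and 29.0 RPKM in MZ*cep290*-/-, against 9.24, 8.03 and 11.2 RPKM in wild type, and the eye and brain factor *pax6a* had 9.48, 8.68 and 10.1 RPKM, against 3.57, 3.44 and 2.23 RPKM. No wild-type library reached a mutant one in any of these. The Notch ligand *dla* had 14.1, 13.1 and 13.0 RPKM, against 3.67, 5.51 and 7.26 RPKM, and *nes*, an intermediate filament of neural stem cells, had 4.90, 4.62 and 4.95 RPKM, against 1.42, 1.88 and 1.95 RPKM. *sox2*, *pax6a*, *dla* and *nes* were chosen after their values were seen. The progenitor markers *sox3*, *gfap* and *neurog1* had log2 fold changes of 0.645, 0.592 and 0.672 that were not called. *neurog1* had 9.38, 8.80 and 8.39 RPKM in MZ*cep290*-/-, against 3.40, 5.16 and 9.53 RPKM in wild type.

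The her and hes genes are transcriptional repressors, and Notch signalling switches on many of them, though not all, in progenitors. The list was chosen by symbol, and a response of its genes to Notch was not tested. Of 13 tested, 5 were called higher (38.5%, beside 13.7% of all members) and none lower (beside 7.49%). The median log2 fold change was 0.99, or 0.73 to 0.90 above all members over the scalings, and no scaling turned it negative. Of those called, *her4.1*, *her4.2* and *her13* met the rule of 2 RPKM through MZ*cep290*-/-. The share called higher and the median are therefore partly selected by the rule. *her4.1* had 6.87, 5.50 and 5.40 RPKM in MZ*cep290*-/- (185, 129 and 137 reads), against 0 reads in each wild-type library, which makes it at least 9.69-fold higher against a floor of 3 reads per library. Its near copy *her4.2* (chosen after its values were seen) had 4.98, 4.63 and 4.82 RPKM, against 0.852, 0.485 and 1.04 RPKM, and reads of such copies can be split between them by the counting. *her13* had 12.4, 11.3 and 12.1 RPKM in MZ*cep290*-/-, against 0, 3.24 and 0.929 RPKM in wild type, and the smaller rise of *her12* (log2 fold change 1.02) was lost with 3 scalings and without wild-type replicate 1 (0.90) or MZ*cep290*-/- replicate 3 (0.99). The log2 fold change of *her13* was 4.10 (SE 1.00) and ran from 2.70 without wild-type replicate 1 to 5.23 without wild-type replicate 2.

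Hox genes, which assign position along the body axis, also moved mostly upwards. Of 42 tested, 13 were called higher (31.0%) and 2 lower, and the median log2 fold change was 0.79, or 0.59 to 0.65 above all members under every scaling; 7 to 32 were higher over the settings. *hoxc12a* had 15.7, 13.9 and 13.7 RPKM in MZ*cep290*-/-, against 1.25, 2.24 and 3.87 RPKM in wild type, *hoxb9a* 14.4, 12.9 and 12.9 RPKM, against 4.12, 4.83 and 4.62 RPKM, and *hoxc8a* 14.1, 14.8 and 15.5 RPKM, against 4.52, 8.84 and 7.02 RPKM (log2 fold change 1.16, or 0.90 and no longer called without wild-type replicate 1). The 2 that fell, *hoxa13a* (log2 fold change −1.55) and *hoxd12a* (−1.11), belong to posterior paralogue groups, as *hoxc12a* does. *hoxa13a* had 1.13, 1.50 and 1.73 RPKM, against 5.31, 5.05 and 3.18 RPKM. The call of *hoxd12a* was lost on leaving out any of 5 libraries, wild-type replicate 3 being the exception, with an adjusted p up to 0.104.

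Genes of mature neurons and synapses were divided. Of 188 tested, 25 were called higher (13.3%, beside 13.7% of all members) and 10 lower (5.32%, beside 7.49%, with 5 or 6 lower without single MZ*cep290*-/- replicates), and their median log2 fold change was 0.21. The list took 1.14% ± 0.022 of reads in MZ*cep290*-/- and 0.504% ± 0.025 in wild type (SD, n = 3 each, exact permutation p = 0.10), to be read against the same general shift of 0.86 on the log2 scale with read totals. *stmn1b*, a microtubule regulator of growing axons, had 176, 171 and 171 RPKM in MZ*cep290*-/-, against 26.2, 39.0 and 41.1 RPKM in wild type (log2 fold change 2.31, SE 0.173). The RNA-binding neuronal marker *elavl3* had 53.4, 51.6 and 52.8 RPKM, against 13.6, 11.5 and 11.5 RPKM, and the exocytosis gene *snap25a* had 95.0, 95.4 and 90.6 RPKM, against 34.0, 33.2 and 38.0 RPKM; both were chosen after their values were seen. The calmodulin genes *calm3a* and *calm1a* rose by log2 fold changes of 1.29 and 1.06, the second 0.98 and no longer called without wild-type replicate 1. The calcium buffer *pvalb6* fell, with 5.50, 5.75 and 4.98 RPKM, against 19.6, 25.0 and 23.3 RPKM, as did the sodium pump subunit *atp1a3b* (log2 fold change −1.17). Channel genes for potassium, sodium and calcium held more lower than higher calls, 10 against 2 of 72, with 5 higher without wild-type replicate 1 or 2, and with 1 to 12 lower over the settings and 4 or 5 without single MZ*cep290*-/- replicates.

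Among 31 glial genes 2 rose and 1 fell. The myelin proteolipid *plp1a* had 10.0, 10.1 and 9.84 RPKM in MZ*cep290*-/-, against 3.74, 3.27 and 3.03 RPKM in wild type. Myelin basic protein *mbpa* went the other way, with 1.56, 1.71 and 1.64 RPKM, against 4.85, 4.52 and 3.63 RPKM.

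Of the 10 genes called higher with the most RPKM, *hmgn2*, *ptmaa*, *hmgb3a*, *hmgb1a* and *h3f3a* encode chromatin proteins or a histone. *hmgn2*, which binds nucleosomes, had 748, 739 and 760 RPKM in MZ*cep290*-/-, against 55.5, 61.2 and 72.2 RPKM in wild type (log2 fold change 3.58, SE 0.116, adjusted p = 1.34e-06), and was called in every setting run. Prothymosin alpha *ptmaa* had 433, 403 and 407 RPKM, against 52.5, 60.8 and 71.5 RPKM. The DNA-bending proteins *hmgb3a* and *hmgb1a* had 318, 319 and 324 RPKM and 311, 307 and 310 RPKM in MZ*cep290*-/-, against 71.4, 78.9 and 103 RPKM and 98.5, 154 and 140 RPKM in wild type. In each of these the spread between mutant pools was small beside the gap to wild type. The replacement histone *h3f3a* had 417, 428 and 418 RPKM, against 137, 159 and 240 RPKM. The other 5 were the calmodulins *calm3a* and *calm1a*, the RNA-binding *khdrbs1a*, the galectin *lgals1l1* (353, 371 and 356 RPKM, against 57.2, 52.5 and 88.4 RPKM) and the selenium carrier *sepp1a* (386, 393 and 392 RPKM, against 96.2, 104 and 130 RPKM).

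Chromatin regulators as a list were closer to the background, with 18 of 182 called higher (9.89%) and 1 lower. *brd3a*, which reads acetylated histones, had 31.7, 30.2 and 29.0 RPKM in MZ*cep290*-/-, against 10.2, 9.08 and 9.09 RPKM in wild type, and the deacetylase *hdac1* had 151, 155 and 157 RPKM, against 72.7, 75.4 and 75.5 RPKM. The 1 that fell was the cohesin gene *rad21a*, with 2.46, 2.08 and 1.51 RPKM, against 9.82, 9.79 and 10.8 RPKM. The list took 1.36% ± 0.025 of reads in MZ*cep290*-/- and 0.718% ± 0.035 in wild type (SD, n = 3 each, exact permutation p = 0.10). With read totals its median log2 fold change was 0.87, beside 0.86 for all members, so this share followed the general shift.

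Genes of mitosis moved upwards, while genes of DNA replication stayed near all members as a list. Of 100 genes of mitosis, 23 were called higher (23.0%) and 1 lower, and the median log2 fold change was 0.45; 16 to 54 were higher over the settings. *lmnb2*, a nuclear lamin, had 51.7, 51.8 and 52.2 RPKM in MZ*cep290*-/-, against 10.4, 8.91 and 11.8 RPKM in wild type (log2 fold change 2.32, SE 0.122). *mki67*, a marker of cycling cells, had 41.6, 38.1 and 38.9 RPKM, against 13.2, 12.1 and 16.1 RPKM, and the mitotic kinase *cdk1* had 40.1, 39.0 and 43.5 RPKM, against 13.0, 17.7 and 22.8 RPKM. Of 80 genes of DNA replication, 9 were called higher (11.2%, beside 13.7% of all members) and none lower (beside 7.49%). Their median log2 fold change was 0.14, beside 0.15 for all members. Among them *rrm2*, which makes deoxynucleotides, had 26.8, 26.3 and 27.4 RPKM in MZ*cep290*-/-, against 1.27, 3.23 and 7.62 RPKM in wild type (9, 23 and 63 reads). Wild-type libraries differed widely among themselves in that gene and still lay below every mutant library, with a log2 fold change of 3.04 that was 2.41 without wild-type replicate 1 and 3.66 without wild-type replicate 3. *mcm6*, of the replicative helicase, and *fen1*, which trims lagging strands, rose by log2 fold changes of 1.27 and 1.32.

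**Figure D4:**
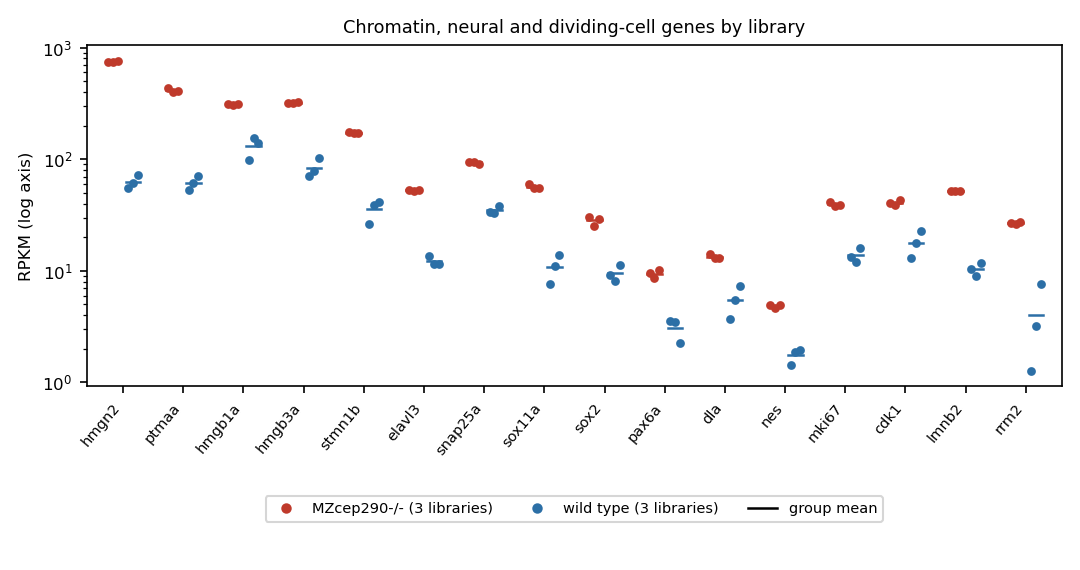
RPKM of 16 genes of chromatin, the nervous system and dividing cells (log axis) in each MZ*cep290*-/- library (red) and each wild-type library (blue), with lines at group means. All red points lie above the blue points of the same gene, from *hmgn2* near 749 RPKM in MZ*cep290*-/- to *nes* near 4.83 RPKM.

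Muscle genes were lower with the deposited scaling. Of 91 genes of fast muscle, 34 were called lower (37.4%) and 3 higher, with a median log2 fold change of −0.75, or −0.90 to −0.30 relative to all members over the scalings; 17 to 45 were lower over the settings. Of 38 genes of slow and heart muscle, 18 were lower (47.4%) and 4 higher, with a median of −0.82. With read totals the median of fast muscle was −0.03, with 20 genes called higher and 17 lower. That of slow and heart muscle was then −0.10, with 9 called higher and 9 lower. Fast muscle genes took 7.70% ± 0.152 of reads in MZ*cep290*-/- and 11.2% ± 0.649 in wild type, and slow and heart genes 2.20% ± 0.067 and 4.82% ± 0.187 (SD, n = 3 each, exact permutation p = 0.10 for each).

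The most abundant gene of the comparison was *actc1b*, an actin of embryonic muscle, with 10938, 11495 and 11676 RPKM in MZ*cep290*-/-, against 38701, 46574 and 48250 RPKM in wild type (log2 fold change −1.96, SE 0.27, adjusted p = 0.000621). The creatine kinases *ckmb* and *ckma*, which buffer ATP in fibres, had 2555, 2693 and 2712 RPKM and 2800, 2967 and 2992 RPKM in MZ*cep290*-/-, against 8884, 10929 and 11906 RPKM and 7654, 9262 and 10739 RPKM in wild type. The thin filament gene *tpma* fell by 1.45 on the log2 scale. The calls of these 4 genes were lost with quantile and cyclic loess normalization (*ckma* and *tpma* also with read totals), and *actc1b* and *tpma* with both, and *ckma* with cyclic loess, came out higher, not lower. *actc1a*, the paralogue of *actc1b* at a far lower level, had 115, 122 and 119 RPKM, against 413, 492 and 471 RPKM, and its call was kept in every setting.

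Among the muscle genes called higher, the heart troponin T genes *tnnt2c* and *tnnt2d* had 30.2, 29.3 and 29.8 RPKM and 58.9, 63.1 and 60.7 RPKM in MZ*cep290*-/-, against 4.42, 12.0 and 4.82 RPKM and 16.7, 17.1 and 25.4 RPKM in wild type. *tnni2b.1*, a fast troponin I, rose by a log2 fold change of 1.32, and *tcap*, which anchors titin, had 8.47, 8.45 and 8.42 RPKM, against 3.29, 2.59 and 3.42 RPKM. *nppa*, a natriuretic peptide of the heart and one of the 10 largest rises, had 9.61, 8.79 and 9.86 RPKM in MZ*cep290*-/-, against 0.888, 1.39 and 0 RPKM in wild type (7, 11 and 0 reads). The other heart markers were not called. *vmhc* was lower in every mutant library (log2 fold change −0.83), and *myl7* had a log2 fold change of 0.41. *tnni1a* was read in no mutant library and had 15.6, 0.759 and 0.654 RPKM in wild type, so its size rests on 1 wild-type library (log2 fold change −4.44, or −3.01 without wild-type replicate 1).

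Cytosolic ribosomal proteins were lower as a list with the deposited scaling. Of 88 cytosolic ribosomal protein genes, 64 were called lower (72.7%) and 1 higher, with a median log2 fold change of −1.44. The list is among the most abundant of the embryo, and its counts moved with the treatment of level: 71 were lower with the centring, 24 with read totals and 2 with cyclic loess, where the median relative to all members was −0.26 in place of −1.59. *rpl35* had 1110, 1081 and 1089 RPKM in MZ*cep290*-/-, against 3587, 4580 and 5027 RPKM in wild type, and *rplp0* had 1114, 1147 and 1168 RPKM, against 3647, 4201 and 5010 RPKM; both calls were lost with quantile and cyclic loess normalization. As a percent of each library's reads, which is the scaling by read totals, the list took 7.34% ± 0.089 in MZ*cep290*-/- and 12.2% ± 1.09 in wild type (SD, n = 3 each, exact permutation p = 0.10). The gene that rose, *rpl7l1*, a relative of a ribosomal protein gene, had 17.6, 20.8 and 20.0 RPKM, against 8.20, 5.63 and 7.23 RPKM.

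Other parts of translation were mixed. Of 94 translation factors 17 were lower and 13 higher: the elongation factors *eef2b* (1146, 1138 and 1140 RPKM, against 3896, 4513 and 4627 RPKM) and *eef1a1l1* (log2 fold change −1.51) fell, while *eif4g2a* (log2 fold change 1.30) and *eif4ebp2* (1.23), which act on initiation, rose. The calls of *eef2b* and *eef1a1l1* were lost, and the direction of *eef1a1l1* turned positive with quantile and cyclic loess normalization. Of 68 mitochondrial ribosomal protein genes 7 were higher and 6 lower, with a median of −0.01. Of 37 aminoacyl-tRNA synthetase genes 8 were lower and none higher (median log2 fold change −0.64, or 0.06 with read totals).

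Energy metabolism was lower with the deposited scaling. Of the 13 protein genes of the mitochondrial genome, 12 were called lower (92.3%, median log2 fold change −1.93), and with cyclic loess 1 was lower and 1 higher. *mt-co3* had 4149, 4358 and 4436 RPKM in MZ*cep290*-/-, against 25105, 28730 and 30646 RPKM in wild type (log2 fold change −2.70, SE 0.224, adjusted p = 4.83e-05). *mt-atp6* had 5446, 6226 and 5831 RPKM, against 22209, 26603 and 26567 RPKM, and *mt-co1* had 3968, 4019 and 4135 RPKM, against 14926, 16161 and 16351 RPKM. The calls of these 3 were lost with quantile and cyclic loess normalization. The exception was *mt-co2* (chosen after its values were seen), with 4132, 4228 and 4241 RPKM in MZ*cep290*-/-, against 3770, 4040 and 4198 RPKM in wild type (log2 fold change 0.07, SE 0.145, adjusted p = 0.739), whose direction turned negative with the centring. Genes of 1 mitochondrial genome are read from shared long transcripts, so the contrast between *mt-co2* and its neighbours is a contrast within each library. The 13 genes took 3.21% ± 0.083 of reads in MZ*cep290*-/- and 7.55% ± 0.089 in wild type (SD, n = 3 each, exact permutation p = 0.10).

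Of 105 respiratory chain genes in the nucleus, 37 were lower (35.2%) and 2 higher. The median log2 fold change of −0.68 was 0.00 with read totals and −0.86 to −0.40 relative to all members; 7 to 52 were lower over the settings. The ATP synthase gene *atp5a1* had 492, 504 and 502 RPKM in MZ*cep290*-/-, against 1394, 1569 and 1742 RPKM in wild type. The complex I gene *ndufs6* rose, with 44.4, 38.4 and 40.0 RPKM, against 7.33, 14.4 and 14.8 RPKM. Of 53 glycolysis genes 14 were lower and 1 higher, with a median log2 fold change of −0.64. With read totals that median was 0.09, with 8 genes called higher and 5 lower. *aldoab* had 313, 347 and 347 RPKM in MZ*cep290*-/-, against 1036, 1158 and 1366 RPKM in wild type, and *gapdh* had 749, 790 and 789 RPKM, against 1898, 2210 and 2491 RPKM. With quantile and cyclic loess normalization the calls of *atp5a1*, *aldoab* and *gapdh* were lost, and with read totals those of *atp5a1* and *gapdh*. The 1 glycolysis gene that rose with the deposited scaling was the monocarboxylate carrier *slc16a6a* (log2 fold change 1.59).

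**Figure D5:**
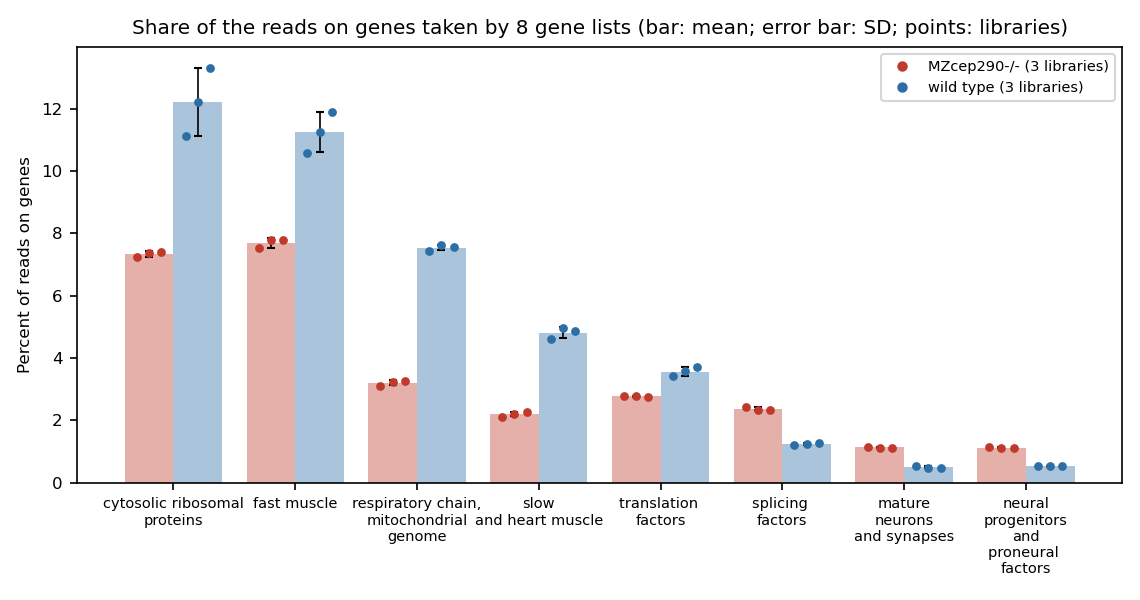
Percent of each library's reads on genes that fell on 8 gene lists, with bars at the mean, error bars of 1 SD and points for the 3 MZ*cep290*-/- libraries (red, left of each pair) and the 3 wild-type libraries (blue). Ribosomal, muscle, mitochondrial and translation lists take less of the mutant reads (7.34% against 12.2% for ribosomal proteins), and splicing, neuronal and progenitor lists more. With read totals the median gene of all members was also higher in MZ*cep290*-/- (log2 fold change 0.86).

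Organs of digestion and blood showed a mixture within each list. Of 74 liver genes 16 were lower (21.6%) and 9 higher. Apolipoproteins that are abundant in plasma fell: *apoa2* had 2774, 2919 and 2888 RPKM in MZ*cep290*-/-, against 7783, 9266 and 11011 RPKM in wild type, and *apoa1a* had 2877, 2984 and 3036 RPKM, against 7460, 9419 and 9417 RPKM. Both calls were lost with read totals, quantile and cyclic loess normalization, and the direction turned with cyclic loess. The fatty acid binding protein *fabp10a*, a liver marker of middle level, had 5.29, 5.81 and 6.24 RPKM, against 24.5, 24.4 and 20.7 RPKM. *apoba*, the core protein of lipoprotein particles, rose, with 81.8, 79.8 and 77.5 RPKM in MZ*cep290*-/-, against 26.3, 26.9 and 31.0 RPKM in wild type, as did the fibrinogen chain *fgg* (log2 fold change 1.28) and the haemoglobin scavenger *hp*, with 45.4, 47.1 and 46.5 RPKM, against 3.94, 9.49 and 5.36 RPKM. Transferrin *tfa* was not called, with 530, 538 and 529 RPKM, against 436, 521 and 569 RPKM. *fabp10a*, *hp* and *tfa* were chosen after their values were seen.

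Of 9 genes of the exocrine pancreas 2 were called lower and none higher (median log2 fold change −0.79). The trypsin gene *try* had 4.96, 4.90 and 7.15 RPKM in MZ*cep290*-/-, against 14.2, 21.5 and 14.6 RPKM in wild type, and the carboxypeptidase *cpa5* had at most 4.31 RPKM, against at least 12.4 RPKM. Both calls were lost with read totals. Among the endocrine genes of the pancreas, insulin *ins* had 17.6, 16.2 and 18.2 RPKM, against 59.4, 40.0 and 42.9 RPKM, and glucagon *gcgb* had 2.91, 4.32 and 4.19 RPKM, against 14.4, 6.63 and 10.2 RPKM. Over all 38 peptide hormones 5 were higher and 3 lower (6 without wild-type replicate 2). Of 5 hatching gland genes 3 were lower; the hatching enzyme *he1a* had 58.0, 69.3 and 64.3 RPKM in MZ*cep290*-/-, against 126, 177 and 197 RPKM in wild type. No gene of that list was called with read totals, and the *he1a* call was also lost with quantile and cyclic loess normalization. The gland empties at hatching, and whether the groups hatched at the same time was not given.

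Of 33 genes of red cells 8 were lower and 4 higher (2 without MZ*cep290*-/- replicate 2). The embryonic globins *hbae3* and *hbae1*, which carry oxygen, had 2945, 3057 and 3071 RPKM and 403, 441 and 440 RPKM in MZ*cep290*-/-, against 8355, 11071 and 11726 RPKM and 1219, 1701 and 2063 RPKM in wild type, and both calls were lost with quantile and cyclic loess normalization, with *hbae3* turned positive by the second. The Rhesus glycoprotein of the red cell membrane, *rhag*, went the other way, with 38.5, 36.8 and 38.6 RPKM, against 8.40, 13.0 and 16.3 RPKM. In the 20 intestinal genes 4 were higher and 4 lower (2 without MZ*cep290*-/- replicate 2 or wild-type replicate 2), with *dgat2* (fat synthesis, log2 fold change 1.62) and the mucin *muc13a* (1.98) among those that rose and the brush border gene *vil1* (−1.55) among those that fell. Of 34 pronephros genes 6 were higher (3 or 2 without MZ*cep290*-/- replicate 1 or 2) and 4 lower: the anion transporter *slc26a1* had 6.01, 6.93 and 6.03 RPKM in MZ*cep290*-/-, against 0.920, 0.306 and 2.30 RPKM in wild type (log2 fold change 2.68, or 2.03 without wild-type replicate 2 and 3.32 without wild-type replicate 3), and the sodium pump *atp1a1a.1* had 68.5, 68.2 and 68.4 RPKM, against 134, 152 and 163 RPKM.

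Of 59 genes of keratins and epidermis 9 were higher and 8 lower. *krt4* had 2364, 2404 and 2379 RPKM in MZ*cep290*-/-, against 4935, 5698 and 6601 RPKM in wild type, and *krt5* had 411, 400 and 404 RPKM, against 1103, 1231 and 1449 RPKM; the call of each was lost with read totals, quantile and cyclic loess normalization, and with quantile and cyclic loess *krt4* came out higher. The adhesion genes *epcam* and *cdh1* had 186, 183 and 186 RPKM and 39.0, 39.2 and 37.4 RPKM in MZ*cep290*-/-, against 46.9, 60.7 and 58.7 RPKM and 10.6, 8.14 and 8.85 RPKM in wild type. The claudin *cldni* (log2 fold change 1.33) and *evpla*, of the cornified envelope in mammals, also rose; *evpla* had 14.8, 14.5 and 15.3 RPKM, against 2.78, 2.58 and 2.78 RPKM. *cdh1* and *evpla* were chosen after their values were seen.

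Pigment cell genes moved in both directions, with 6 of 49 called higher and 7 lower. *gch2*, which starts the pteridine pathway of yellow pigment cells, had 143, 144 and 150 RPKM in MZ*cep290*-/-, against 21.9, 21.5 and 20.6 RPKM in wild type (log2 fold change 2.77, SE 0.104, adjusted p = 3.74e-06). *pnp4a*, a gene of the reflective purine cells, had 35.8, 35.0 and 38.1 RPKM, against 11.2, 8.51 and 11.3 RPKM. The melanin genes *tyrp1a* and *slc45a2* (the second chosen after its values were seen) were lower, with 30.1, 29.7 and 29.5 RPKM and 23.7, 24.7 and 22.2 RPKM in MZ*cep290*-/-, against 71.9, 71.2 and 76.4 RPKM and 55.7, 57.5 and 60.8 RPKM in wild type. The melanin markers *tyr* (−0.81), *dct* (−0.13) and *pmela* (−0.93) had log2 fold changes that were not called. Of purine synthesis, *paics* had 96.0, 105 and 107 RPKM, against 236, 291 and 333 RPKM, and *atic* fell by 1.07 on the log2 scale. The calls of both were lost with read totals, quantile and cyclic loess normalization, and those of *tyrp1a* and *slc45a2* with read totals.

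Genes of cartilage and matrix held calls in both directions. Of 35 genes of cartilage and bone 4 were higher (11.4%, beside 13.7% of all members) and 1 lower (2.86%, beside 7.49%). *hapln1a*, which links hyaluronan to proteoglycan, had 84.8, 84.8 and 82.2 RPKM in MZ*cep290*-/-, against 22.7, 25.9 and 26.9 RPKM in wild type, and the cartilage matrilin *matn1* had 40.6, 40.0 and 39.6 RPKM, against 107, 106 and 133 RPKM. The cartilage markers *col2a1a* (−0.12) and *acana* (0.33) had log2 fold changes that were not called. Of 165 genes of the extracellular matrix 16 were higher (9.70%) and 18 lower (10.9%), and of 48 collagen genes 4 were lower (8.33%) and 2 higher (4.17%). The fibrillar collagen *col1a1a* had 438, 420 and 426 RPKM, against 1206, 1288 and 1462 RPKM, *col1a1b* and *col1a2* fell by 1.41 and 1.16 on the log2 scale, and all 3 calls were lost with read totals, quantile and cyclic loess normalization. The basement membrane chain *col4a6* (log2 fold change 1.26) and the short-chain collagen *col8a1a* (2.04) rose. Of 45 leukocyte genes 9 were higher (20.0%) and 4 lower (8.89%), beside 13.7% and 7.49% of all members, with *cxcl14*, a chemokine, at 23.2, 26.3 and 21.9 RPKM in MZ*cep290*-/-, against 3.34, 6.06 and 10.7 RPKM in wild type. The leukocyte markers *lyz* (0.60), *mpeg1* (0.23), *lcp1* (−0.53) and *mpx* (−0.80) had log2 fold changes in both directions that were not called.

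Several families of cell machinery moved upwards. Of 183 splicing factors 34 were higher (18.6%) and 1 lower, and the median log2 fold change was 0.29; 19 to 94 were higher over the settings. The RNA helicase *ddx5* had 143, 142 and 135 RPKM in MZ*cep290*-/-, against 42.4, 46.4 and 53.3 RPKM in wild type, and *khdrbs1a* had 558, 532 and 533 RPKM, against 222, 242 and 283 RPKM. The list took 2.38% ± 0.050 of reads in MZ*cep290*-/- and 1.25% ± 0.035 in wild type (SD, n = 3 each, exact permutation p = 0.10). With read totals its median log2 fold change was 1.02, beside 0.86 for all members, so most of this rise in share was the general shift. Of 120 zinc finger genes 23 were higher (19.2%) and 1 lower. Of 71 genes of nonsense-mediated decay and RNA turnover 7 were higher and 3 lower, which is near the background; *lsm7* had 53.0, 54.5 and 53.5 RPKM, against 14.3, 12.1 and 14.3 RPKM, and the exosome subunit *exosc1* had 15.1, 10.7 and 12.1 RPKM, against 52.8, 55.0 and 47.4 RPKM.

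Small GTPases, the switches of vesicle traffic and cell shape, were higher in 2 lists. Of 73 Rab genes 17 were higher (23.3%, or 11 genes without MZ*cep290*-/- replicate 1) and 1 lower (3 or 4 without wild-type replicate 2 or 3), with a median log2 fold change of 0.51, and of 80 genes of other small GTPases 18 were higher (22.5%) and none lower, with a median of 0.61; both medians stayed positive under every scaling. *arf1*, which recruits coats to the Golgi, had 40.3, 40.4 and 40.2 RPKM in MZ*cep290*-/-, against 7.19, 9.72 and 7.47 RPKM in wild type (log2 fold change 2.31, SE 0.134, adjusted p = 1.17e-05). *rab18a* had 15.0, 17.4 and 16.1 RPKM, against 2.86, 3.02 and 4.08 RPKM. The cytoskeletal switches *rac1a* and *rhoaa* rose by log2 fold changes of 1.18 and 1.12, and both calls were lost with the centring, that of *rhoaa* also without wild-type replicate 1 (0.89). Among 206 coat and Golgi genes 33 were higher (16.0%) and 13 lower, including the clathrin adaptor *ap2s1* (53.0, 52.6 and 57.1 RPKM, against 11.1, 16.6 and 16.1 RPKM) and the retrieval receptor *kdelr2a* (log2 fold change 1.88), which rose.

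Of 30 target genes of p53, 8 were higher (26.7%) and none lower. The median log2 fold change of 0.81 stayed positive under every scaling; 4 to 21 were higher over the settings. *ccng1*, a cyclin that p53 induces, had 224, 235 and 234 RPKM in MZ*cep290*-/-, against 66.5, 77.6 and 79.6 RPKM in wild type (log2 fold change 1.64, SE 0.09, adjusted p = 1.17e-05). *perp*, which p53 induces and which also serves cell junctions in mammals, had 60.7, 60.4 and 59.9 RPKM, against 13.7, 16.5 and 20.1 RPKM. Of 51 genes of endoplasmic reticulum stress 9 were higher and 4 lower (2 or 1 without wild-type replicate 2 or 3): the lectin chaperone gene *calrl* had 61.4, 58.5 and 58.2 RPKM in MZ*cep290*-/-, against 16.0, 16.6 and 14.9 RPKM in wild type, while the stress factor *xbp1* had 61.1, 62.5 and 61.9 RPKM, against 109, 128 and 139 RPKM, a call (log2 fold change −1.01) that was lost with 3 scalings and without wild-type replicate 2 (−0.99) or 3 (−0.93). Of 15 annexins, which bind membranes through calcium, 6 were higher, with *anxa1c* at 93.2, 87.8 and 93.1 RPKM, against 17.7, 32.8 and 42.7 RPKM. Of 51 proteasome genes 9 were lower (5 without wild-type replicate 3) and 5 higher.

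Genes of the cilium itself held shares of calls near the background. Of 30 intraflagellar transport genes 3 were higher and none lower, of 30 genes of the transition zone and satellites 2 were higher and 2 lower, and of 20 motile cilia genes at this level 3 were higher and 1 lower. Over the settings, leaving out single libraries included, the counts of higher genes ran from 1 to 12, from 1 to 6 and from 2 to 9. *dynlrb1*, a light chain of dynein, had 60.5, 61.2 and 64.0 RPKM in MZ*cep290*-/-, against 18.5, 27.0 and 32.2 RPKM in wild type. In the transition zone list *lztfl1*, which regulates entry of the BBSome into cilia in mammals, had 14.1, 14.5 and 15.9 RPKM, against 8.53, 2.54 and 5.33 RPKM, and *tmem237a* had 0.699, 1.60 and 1.19 RPKM, against 6.58, 7.63 and 2.31 RPKM, where the lowest wild-type library lay close to the mutant ones and the call was lost without MZ*cep290*-/- replicate 1 (adjusted p = 0.0625). Of 28 Hedgehog pathway genes 5 were higher (17.9%, beside 13.7% of all members) and 1 lower, with 1 to 15 higher over the settings. The Hedgehog coreceptor *gas1a* had 33.7, 33.9 and 34.1 RPKM in MZ*cep290*-/-, against 9.40, 9.61 and 9.86 RPKM in wild type, and *smo*, the signal transducer of the pathway that acts in cilia in mammals, had 12.3, 11.5 and 11.2 RPKM, against 4.85, 4.24 and 5.65 RPKM. The call of *smo* was lost with cyclic loess normalization and with the centring. Of 71 Wnt pathway genes 8 were higher (4 without MZ*cep290*-/- replicate 1) and 1 lower, with *sfrp2*, a secreted inhibitor, at 43.7, 41.9 and 45.1 RPKM, against 17.2, 20.2 and 14.3 RPKM. Of 33 clock genes 6 were higher and none lower; *rorb* had 12.2, 12.2 and 12.2 RPKM, against 4.42, 5.31 and 2.68 RPKM.

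Among single genes, the largest fall with no overlap was that of *serbp1a*, an RNA-binding partner of ribosomes in mammals, with 0.454, 0.557 and 0.615 RPKM in MZ*cep290*-/- (29, 31 and 37 reads), against 43.9, 51.0 and 58.7 RPKM in wild type (log2 fold change −6.32, SE 0.171, adjusted p = 5.32e-07). It was called in every setting, and the *cep290ex25* morphants had 44.6, 39.2 and 55.4 RPKM. The cause of this fall was not tested, and genotype and clutch cannot be told apart. Of the 10 largest falls of genes of at least 500 bases, *gnat2*, *gnb3b*, *opn1sw1*, *pde6h* and *prph2b* are photoreceptor genes. The remaining 3, besides *tnni1a*, were low in both groups: *npy8ar*, a neuropeptide Y receptor, had 0.591, 0.0755 and 0.209 RPKM, against 4.17, 6.05 and 5.54 RPKM, *cbln9* had at most 0.394 RPKM, against at least 2.53 RPKM, and *pgpep1l* at most 0.346 RPKM, against at least 3.18 RPKM, a call that was lost without MZ*cep290*-/- replicate 3 (adjusted p = 0.0668). These genes and *tnni1a* met the rule of 2 RPKM through wild type, as did *serbp1a*, *gnat2*, *gnb3b*, *pde6h* and *prph2b*. This ranking is therefore partly selected by the rule.

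The 10 largest rises were led by *her4.1* and *ppp1r14c*, a regulator of protein phosphatase 1 named by homology. Both met the rule of 2 RPKM through MZ*cep290*-/- alone, and *her13* and *nppa*, named below, also averaged under 2 RPKM in wild type. This ranking is therefore partly selected by the rule. *ppp1r14c* had 4.53, 4.58 and 3.97 RPKM in MZ*cep290*-/- (234, 206 and 193 reads), against 0 reads in each wild-type library, at least 13.7-fold higher against the floor. The *cep290ex25* morphants had 0.200, 0.0315 and 0 RPKM. The remaining 8, *her13*, *nppa*, *tspan33*, *rfk*, *dpm2*, *TMEM261*, *TMEM241 (1 of 2)* and *TNFRSF14 (1 of 12)*, had at least 1 wild-type library at 0, and their log2 fold changes of 4.06 to 4.45 carried SEs of 0.82 to 1.46, so their size is uncertain. Of these, the calls of *rfk*, *dpm2* and *TMEM261* were lost when only the 6 libraries were fitted, or without any 1 of the MZ*cep290*-/- libraries (adjusted p between 0.0625 and 0.116). Without wild-type replicate 1 the log2 fold changes of *TMEM261* and *dpm2* were 2.37 and 2.48, without wild-type replicate 3 that of *nppa* was 2.97, and without wild-type replicate 1 or 2 those of *tspan33* and *TMEM241 (1 of 2)* were 3.70 and 3.41.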

How the data were processed

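RNA was measured by poly(A)-selected, strand-marked 50-base single-end sequencing of 9 libraries, 3 per group, each from 30 pooled embryos. STAR alignment on the Zv9 genome and HTSeq counting were the authors' first steps; the authors deposited 1 table of RPKM made with edgeR, per gene length and normalized library size. Versions and counting options were not given in the sources used here, so near-identical copies are uncertain. RPKM times length gave whole reads for 100% of values (tolerance 0.01), and these gave the depths and the floor of 3 reads, which covers counting error only. The short label of the third wild-type library repeats the number 2, and its title calls it replicate 3.

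Because the values are RPKM, limma 3.58.1 in R 4.3.3 was used in place of the count test of the study. It was fitted on log2(RPKM + 0.1) with a mean-variance trend, with 3 group means over all 9 libraries and genes of at least 0.5 RPKM in 3 libraries. The p-values were adjusted by Benjamini-Hochberg over 21982 genes and all of them measure the spread between pools. A gene was called at an adjusted p under 0.05 and above 2-fold. The code was tested on simulated data. Read shares were compared by exact two-sided permutation, and all lists but collagens and chaperones gave p = 0.10. The median-of-ratios, quantile, cyclic loess, read-total and centred scalings, other pseudocounts, filters, weights and left-out libraries were the alternatives.

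The members, the 61 lists (chosen by gene symbol) and the tests were chosen with earlier results of these data known. Lists are described by counts and medians only. The text names *cep290*; of each list up to 3 called members with the highest mean RPKM in the direction with more calls and up to 2 in the other (with under 2 calls, the 2 highest members); the 10 largest rises and falls among called, non-overlapping genes of at least 500 bases; and the 10 highest called genes in each direction, clone names left out. Other names are markers of the expected tissues or are stated as chosen after their values were seen. No coordinates or sequences are given, and 1 gene that the rule names is not reported here.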

Additional observations from a re-analysis of the deposited data

How the results depend on the processing

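The count of members called higher, 2036 with the deposited scaling, was 5908 with read totals, 1284 when centred on genes of 5 to 50 RPKM, 3658 with no fold threshold and 1355 for genes of at least 5 RPKM. The count called lower, 1111, was 316 with read totals, 1828 with the centring, 2436 with no fold threshold, 2009 for genes of at least 1 RPKM and 720 for genes of at least 5 RPKM. Over all genes of the fit 2286 were higher and 2657 lower, against 6593 and 1188 with read totals, 1480 higher with the centring, 1382 lower with cyclic loess, 1118 lower when only genes of at least 2 RPKM were fitted, and 3916 and 3991 with no fold threshold. Leaving out 1 library at a time gave between 1669 and 1705 higher and 963 to 972 lower members without single MZ*cep290*-/- replicates, and 2158 to 2215 and 1153 to 1250 without single wild-type replicates. Without single morphant replicates the counts were 1971 to 2002 and 1114 to 1139.

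Some of the most abundant genes turned positive. With quantile normalization the log2 fold changes were *ATP5B* 0.060, *actc1b* 0.17, *apoa1b* 0.28, *eef1a1l1* 0.050, *gnb2l1* 0.0058, *hbbe1.1* 0.033, *krt4* 0.26, *mt-atp6* 0.34 and *tpma* 0.11. With cyclic loess they were *actc1b* 0.49, *apoa1a* 0.29, *apoa1b* 0.56, *apoa2* 0.16, *ckma* 0.22, *eef1a1l1* 0.075, *gnb2l1* 0.047, *hbae3* 0.10, *krt4* 0.50, *mt-atp6* 0.071, *mt-co1* 0.075 and *tpma* 0.39, while *nr2e3* was −0.11. With read totals *cep290* was 0.086 and *he1b* 0.017. With the centring *mt-co2* was −0.19, *nr2e3* −0.049 and *tfa* −0.19, and *tfa* was −0.034 without wild-type replicate 1. Cyclic loess removes any trend with level by construction; the cause of the other changes was not tested. Of 300 called genes among those chosen by the rule, 136 were called the same way in every setting. Lists with 1 or 2 calls in a direction gained or lost up to 3 on leaving out 1 library, among them Hedgehog, mitosis, motile cilia, chromatin, splicing, zinc finger and glial genes.

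Same-numbered libraries did not deviate together (correlations of 8.31e-05, −0.0129 and 0.00859). Whether pools of the same number were collected or processed together was not given, and these correlations cannot settle it. With the replicate number as a block 2018 members were higher and 1083 lower, of which 1978 and 1072 were also called without it. Depth limits the low genes of wild type, whose steps are the coarsest.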

Other observations

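Symbols that differ only in a final a or b often, though not always, name zebrafish duplicates of 1 gene (*cpt1a* and *cpt1b*, for example, are distinct genes in vertebrates). Among 917 such pairs with both genes tested, both were called higher in 44 and both lower in 13, and only 1 of the pair was called in 278. In 6 pairs the genes were called in opposite directions: *aim1a* and *aim1b*, *cpt1a* and *cpt1b*, *dio3a* and *dio3b*, *gdf10a* and *gdf10b*, *gnb3a* and *gnb3b*, and *sdr16c5a* and *sdr16c5b*. Neither gene was called in 576 pairs.

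Of the 40 tested genes nearest to *cep290*, 20 on each side in RefSeq's order on GRCz12tu, 7 were called higher (17.5%, beside 13.7% of all members) and 1 lower (2.50%, beside 7.49%); the median log2 fold change was 0.37. Of the members, 325 did not pass the filter on low values; 319 of these were under 500 bases long, with a median length of 115 bases, and 287 had 0 reads in at least 4 of the 6 libraries.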
